A study of Mus musculus with 3 samples.

Results

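The genes described here encode proteins that sit on the surface of pancreatic duct cells or are made in their secretory pathway. They are Pigr, Gprc5c, Tm4sf4, Tspan8, Prom1, Muc1, Slc28a3, Ambp, Ces1d and Spp1. They were chosen by their measured difference between the 2 ductal arrays and their known role, so that difference is a description of the choice and is not tested. Of the 10 listed genes, 9 had a probe set that the platform annotation assigns to that gene alone, among 19938 genes with such a probe set in all. Spp1, the osteopontin gene, lacked such a probe set in the table used and is not analysed here.

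RNA from sorted pancreatic cells of adult C57BL/6 mice was measured on 3 arrays, 1 for each group. Ductal cells were pooled from 6 mice with wild-type Fbw7 (Fbw7 +/+) and, for the deleted group, from 6 mice with both alleles floxed (Fbw7 F/F). Mice of both groups carried the transgene Ck19-CreERT and the reporter R26-LSL-YFP. They received tamoxifen for 5 days, which activates the Cre recombinase in cells that use the cytokeratin 19 promoter and switches on the yellow reporter; cells were collected 7 days after the final injection. Beta cells were pooled from 3 untreated Fbw7 +/+; MIP-GFP mice, in which a green reporter marks cells that use the insulin promoter. Each array therefore stands for 1 pool, the beta cell array differs from both ductal arrays in reporter and treatment as well as cell type, and no difference below has a replicate check or a p-value. In pooled RNA, fewer cells of a type and less RNA per cell cannot be told apart.

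The ducts of the pancreas carry digestive enzymes to the gut and line their lumen with a polarised epithelium. The apical membrane of such a cell bears mucins, protrusions and transporters, and receptors carry antibodies across the cell from the tissue side. Fbw7 picks the proteins that a ubiquitin ligase marks for breakdown, so it acts on protein stability, which arrays do not measure.

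The labelled cell types were compared with marker genes. Levels are log2 intensities, and a level is called above the floor when it exceeds the median of all single-gene probe sets on its array (5.30 for beta cells, 5.23 for the wild-type and 5.24 for the deleted ductal array). Of 14 measured duct markers, 11 lay above the floor in each ductal array and 12 in the beta cell array, so that count does not separate them. Krt19 read 9.13 in wild-type, 9.53 in deleted and 6.71 in beta cells. The chloride channel gene Cftr was below the floor in both ductal arrays (4.95 and 5.13) and in beta cells (4.95). Of 9 beta cell markers, 7 were above the floor in beta cells and 3 in each ductal array. Ins2 read 11.04 in beta cells, Mafa 5.49 on all 3 arrays, and Pdx1 was below the floor in beta cells (5.14). Epcam read 5.42 in wild-type cells, 0.19 above the floor and the same value as in beta cells, and 7.22 in deleted cells. All 8 mesothelial markers were above the floor in both ductal arrays, from 7.91 to 10.62 in wild-type and from 7.98 to 10.73 in deleted cells. Their summed level (log2 of the summed intensities) was 13.18 in wild-type and 13.12 in deleted cells. That of the 14 duct markers was 11.63 and 12.52. The share of each cell type in the pools was not tested. Acinar markers were above the floor in 10 of 12 cases on every array, beta cells included. The targeted gene, Fbxw7, read 4.95 in all 3 arrays on 1 probe set (10492826) and 6.32 in wild-type against 5.71 in deleted cells on the other (10499093). The sources used here do not say where these probes lie relative to the floxed part.

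Promoter windows, running from 250 bases before to 50 bases after a gene's start, were taken from RefSeq (build GRCm38.p6) for the members, and 7 of the 9 measured genes had at least 1 window. Those of the 3 members with the largest difference between the ductal arrays, Pigr (chr1:130826434-130826733, plus strand), Tm4sf4 (chr3:57425160-57425459, plus strand) and Slc28a3 (chr13:58610828-58611127, minus strand), are shown with that of the member with the smallest, Tspan8 (chr10:115817034-115817333, plus strand), so that the letters behind the motif counts can be seen. They are written 5′ to 3′ on the gene's strand, with capitals for matches to the motifs named after them.
Pigr: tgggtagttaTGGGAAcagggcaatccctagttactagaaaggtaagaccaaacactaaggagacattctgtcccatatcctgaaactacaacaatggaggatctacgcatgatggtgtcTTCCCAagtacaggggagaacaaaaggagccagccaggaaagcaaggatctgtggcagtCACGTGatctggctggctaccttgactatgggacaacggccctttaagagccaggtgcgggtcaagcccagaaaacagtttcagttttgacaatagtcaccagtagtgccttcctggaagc
Tm4sf4: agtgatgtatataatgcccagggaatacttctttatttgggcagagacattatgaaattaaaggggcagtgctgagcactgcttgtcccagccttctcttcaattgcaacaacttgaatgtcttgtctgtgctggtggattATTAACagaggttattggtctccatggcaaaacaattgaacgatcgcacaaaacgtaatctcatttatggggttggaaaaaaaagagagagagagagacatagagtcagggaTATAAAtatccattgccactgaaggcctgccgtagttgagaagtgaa
Slc28a3: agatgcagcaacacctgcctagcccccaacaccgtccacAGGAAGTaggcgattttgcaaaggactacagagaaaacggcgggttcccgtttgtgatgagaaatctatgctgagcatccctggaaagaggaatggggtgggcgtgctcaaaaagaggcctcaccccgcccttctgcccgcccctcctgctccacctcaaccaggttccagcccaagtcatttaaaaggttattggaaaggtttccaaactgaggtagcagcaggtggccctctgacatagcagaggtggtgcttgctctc
Tspan8: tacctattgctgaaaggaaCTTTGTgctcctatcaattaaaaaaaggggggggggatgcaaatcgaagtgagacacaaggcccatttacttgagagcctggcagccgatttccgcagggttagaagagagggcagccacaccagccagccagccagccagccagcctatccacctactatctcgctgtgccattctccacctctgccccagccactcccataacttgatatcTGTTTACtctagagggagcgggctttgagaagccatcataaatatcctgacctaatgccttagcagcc

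The search read both strands for 7 short motifs, namely the TATA box and motifs of factors known in epithelial or endodermal cells. It also read them for 1 more motif that was added after the sequences were seen. No motif was held by more than 2 of the 7 genes. The HNF1 motif GTTAAT was found in Tm4sf4 alone, as its reverse complement beginning at position -109 from the start, and in 7.1% of all 32851 promoter windows. The FOXA motif TGTTTAC and the SOX motif ACAAAG (as its reverse complement) were found in Tspan8, against 3.65% and 18.7% of all windows. The ETS motif AGGAAGT was found in Slc28a3 and in 1 of 2 windows of Prom1 (9.35% of all windows), and the RBPJ motif TGGGAA in Pigr, on both strands, and in the other Prom1 window (25.6%). The TATA box TATAAA began at position -31 of Muc1 and just after the start of Tm4sf4 (13.6%), and the HNF4 motif CAAAGTC was in none of these windows (4.44%). The added motif, the E-box CACGTG, began at position -71 of Pigr (7.15% of all windows). A match is a description of letters and does not show a bound site.

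The windows of the members held few CpG pairs. The ratio of observed to expected CpG, which corrects for the base content, was below the median of all windows (0.384) in 7 of the 8 member windows, from 0.132 in Ambp to 0.357 in Slc28a3, and 0.41 in the upstream Prom1 window. Their GC content was on both sides of the median of 52.7%, with 4 windows below it.

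All 9 measured members read highest in the deleted ductal cells, and 8 of them were there at least 2-fold above wild-type ductal cells. Over all genes above the floor in that comparison, 1.43% of 10035 passed 2-fold as higher and 1.81% as lower in deleted cells, or 3.25% in either direction. Because the members were listed with these differences known, nothing is read from that contrast in counts. Their median difference was log2 2.76, against 0 over all genes, of which 48.2% held the same value in both ductal arrays. Ranked from the most positive difference, Pigr was at rank 2, Tm4sf4 at rank 3, Slc28a3 at rank 5, Ambp at rank 7 and Ces1d at rank 9, while Tspan8 was at rank 180.

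**Figure D1:**
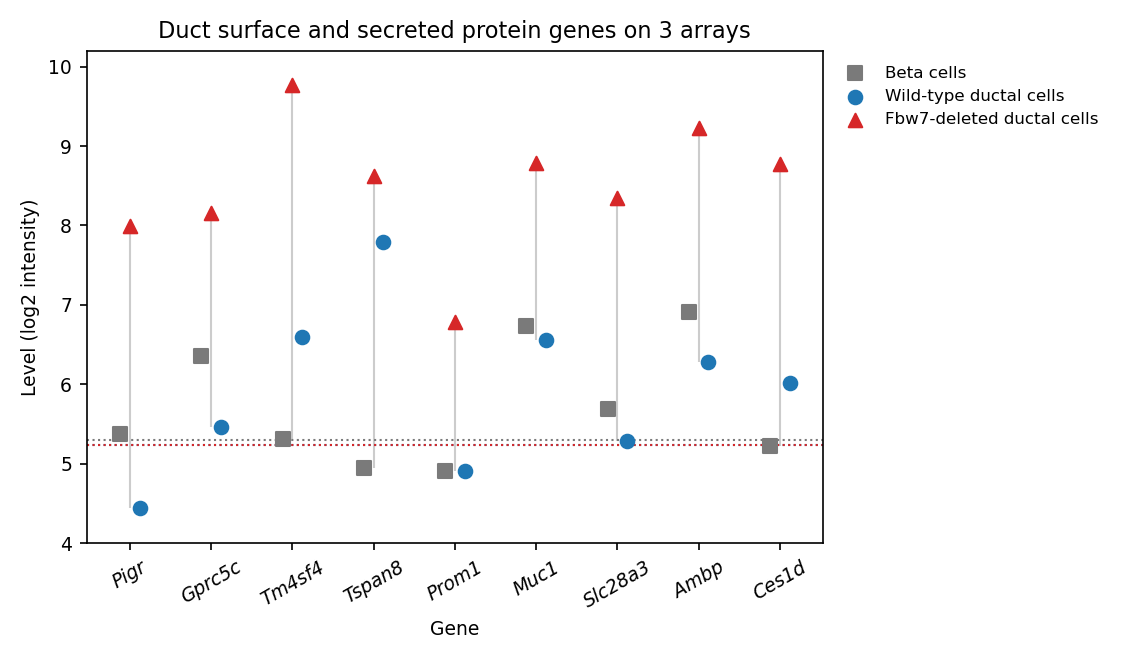
Level of each measured member (log2 intensity) on the 3 arrays, 1 point per array; dotted lines mark the floor of each array in its colour. The deleted ductal array is the highest point for all 9 genes, and Tspan8 is the member for which both ductal arrays read far above beta cells (7.79 and 8.63 against 4.94).

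**Figure D2:**
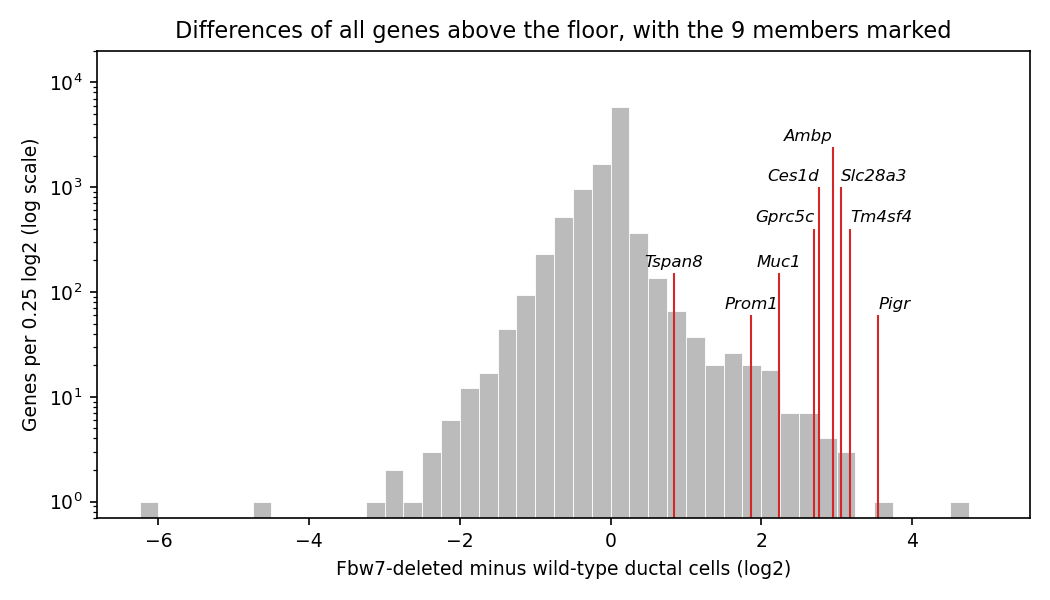
Histogram of the difference between deleted and wild-type ductal cells (log2, bins of 0.25, counts on a log scale) over 10035 genes above the floor, with the 9 members as red lines. Tspan8 lies at 0.84 (rank 180 from the most positive difference) and the other members from 1.87 to 3.55.

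Among the surface receptors, Pigr, which carries polymeric immunoglobulin across epithelia into the lumen, read 4.44 in wild-type ductal cells, 7.99 in deleted ductal cells and 5.38 in beta cells. Its wild-type level was below the floor and its beta cell level 0.07 above it, so the deleted array was the only one to read it well above the floor. The difference between the ductal arrays was 3.55 as measured and 2.76 against the floor, which makes it at least 6.75-fold higher in deleted cells. Jchain, which joins immunoglobulin units into the polymers that Pigr carries, read 3.46 in both ductal arrays. Fcamr and Fcmr were listed with it, and 0 of these 3 genes were above the floor in any array.

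Gprc5c, an orphan G protein-coupled receptor of class C, read 5.46 in wild-type ductal cells, 8.16 in deleted ductal cells and 6.35 in beta cells. Its wild-type level was 0.23 above the floor, and deleted cells were 6.5-fold above wild-type cells on this probe set (10382435). The gene's other probe set (10382425), which the annotation ties to a different transcript, read 5.47, 6.68 and 5.99 in the same order. The direction was shared by both probe sets, but the difference was 2.70 on one and 1.21 on the other. Its relatives Gprc5a and Gprc5b were at 0.25 and -0.47 between the same arrays.

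Tm4sf4 encodes a small protein that crosses the membrane 4 times and belongs to the L6 family. It read 6.59 in wild-type ductal cells, 9.77 in deleted ductal cells and 5.31 in beta cells, the last only 0.01 above the floor. Deleted cells were 9.05-fold above wild-type cells, and both ductal arrays were above beta cells. Tm4sf1 and Tm4sf5, of the same family, read 8.25 and 6.85 in wild-type and 8.31 and 6.85 in deleted ductal cells.

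Tspan8, a tetraspanin that organises other proteins in membrane patches, had the smallest difference between the ductal arrays. Its level was 7.79 in wild-type ductal cells, 8.63 in deleted ones, and 4.94 in beta cells, below the floor. The 1.79-fold difference between the ductal arrays does not reach 2-fold. Of 17 measured tetraspan relatives, 11 were above the floor and 0 were 2-fold apart between the ductal arrays, from Tspan13 at -0.61 to Tm4sf1 at 0.06, with 3 of them identical.

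Prom1, known as CD133, is a membrane protein of microvilli and cilia and a marker of duct and progenitor cells. It read 4.91 in wild-type ductal cells, 6.78 in deleted ductal cells and 4.91 in beta cells. The wild-type and beta values were the same number, both below the floor, and deleted cells were at least 2.92-fold higher. That number was not particular to Prom1: 112 probe sets held it on the wild-type array and 185 on the beta cell array, and its relative Prom2 read 4.91 on all 3 arrays. Such repeated values were common, since 33.3% of probe sets in wild-type cells, 35.8% in deleted cells and 20.0% in beta cells held a value that at least 10 probe sets of that array held. Of the other members, Gprc5c in beta cells (30 probe sets), Muc1 in wild-type cells (27) and Ces1d in wild-type cells (20) also read such a value, and their part in the differences was not tested.

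Muc1, the transmembrane mucin of apical surfaces, read 6.55 in wild-type ductal cells, 8.79 in deleted ductal cells and 6.74 in beta cells. Deleted cells were 4.71-fold above wild-type cells, and wild-type and beta cells were 0.19 apart. Of 9 other mucins, 2 were above the floor in the ductal comparison. Muc16, a mucin of mesothelium, read 10.05 and 10.07, and Muc20 5.02 and 5.35 in wild-type and deleted cells, so neither was 2-fold apart.

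Slc28a3, a transporter that takes up nucleosides with sodium, read 5.29 in wild-type ductal cells, 8.34 in deleted ductal cells and 5.69 in beta cells. Its wild-type level was 0.05 above the floor, and deleted cells were 8.32-fold higher. The 4 other nucleoside transporters above the floor, Slc28a1, Slc29a1, Slc29a2 and Slc29a3, each held the same value in both ductal arrays. Slc29a1 and Slc29a3 held it on the beta cell array as well. Equal values were common on these arrays, so they are not read as unchanged expression.

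Ambp encodes a secreted precursor that is cleaved into alpha-1-microglobulin, a heme and radical scavenger, and bikunin, a protease inhibitor. It read 6.28 in wild-type ductal cells, 9.22 in deleted ductal cells and 6.91 in beta cells, above the floor throughout, and deleted cells were 7.7-fold above wild-type cells. The genes listed as partners of bikunin were those of the Itih family and Tnfaip6, and they were not 2-fold higher in deleted cells. Itih4 was at 0.25 and Itih5 at -0.52, Itih1, Itih2 and Itih3 were below the floor in both ductal arrays, and Tnfaip6 was at least 2.59-fold lower in deleted cells.

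Ces1d, a carboxylesterase that hydrolyses esters and lipids and is held in the endoplasmic reticulum, read 6.02 in wild-type ductal cells, 8.78 in deleted ductal cells and 5.23 in beta cells, the last below the floor. Deleted cells were 6.77-fold above wild-type cells. Of 15 other measured carboxylesterases, 2 were above the floor in this comparison: Ces2e held 5.31 in both arrays and Ces2g was 2.56-fold lower in deleted cells (8.67 and 7.32). Ces1 genes form a cluster of close copies, so probes of 1 can read signal of another, which was not tested. Ces1a, Ces1b, Ces1c, Ces1e, Ces1f and Ces1g read below the floor on all 3 arrays.

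The integrins and Cd44 that bind osteopontin were measured although Spp1 was not. Of 11 such genes, 8 were above the floor and 0 were 2-fold apart between the ductal arrays, from Cd44 at -0.74 to Itga9 at 0.60, with a median of -0.28. Over all families and partners of the members, leaving out the list of other secreted duct proteins, 75 genes were measured and 32 were above the floor. Of these, 0 were at least 2-fold higher in deleted cells, 2 were at least 2-fold lower (Ces2g and Tnfaip6) and the median was 0, where 1.43% and 1.81% of all genes passed those folds. Among the 32 genes, 9 held the same value in both ductal arrays.

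Other secreted proteins of duct and gut epithelia, a list that is not made of relatives, had a median difference of 0.51 over 9 genes above the floor. Of these, 3 were at least 2-fold higher in deleted cells and 0 lower. Tff2, a trefoil peptide that protects mucosa, read 7.53 and 9.74 in wild-type and deleted ductal cells, and Dmbt1, a scavenger receptor that binds bacteria, 8.28 and 9.90. Wfdc15b, a small protease inhibitor, was at least 2.5-fold higher (4.91 and 6.55). Tff2 and Dmbt1 read higher still in beta cells (10.80 and 10.65), an order that no member showed. The summed level of the acinar markers had that order (13.36 in wild-type ductal, 14.70 in deleted ductal and 15.09 in beta cells). Which cells in the pools gave the Tff2 and Dmbt1 signal was not tested. Lcn2, an iron-binding defence protein, was at -0.11.

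**Figure D3:**
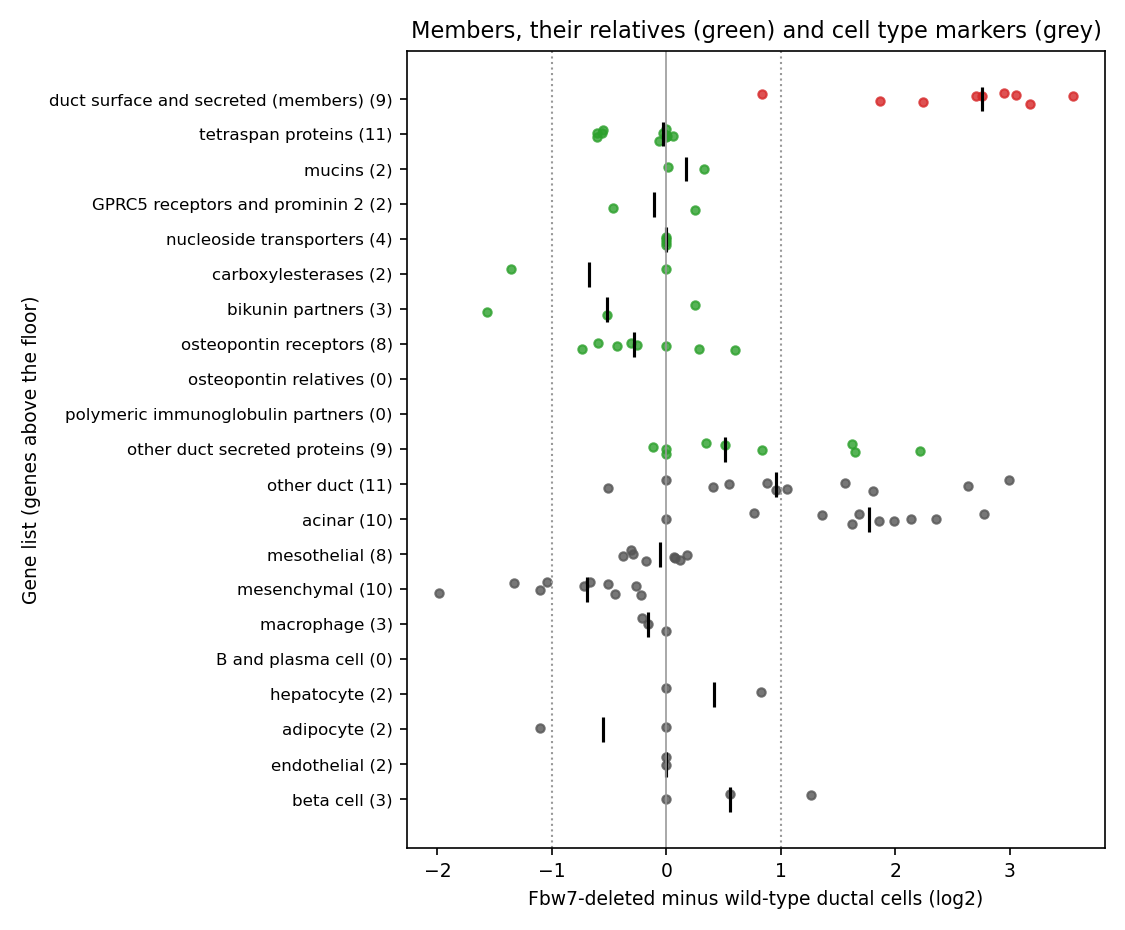
Difference between deleted and wild-type ductal cells (log2) for the 9 members (red), lists of relatives and partners (green) and cell type markers (grey); each point is 1 gene above the floor, black bars are medians, dotted lines mark 2-fold, and the number of genes stands after each name. The members' median of 2.76 was fixed by their choice; the lists of relatives by family have medians from -0.68 to 0.17 and the acinar list 1.77.

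Markers of several cell types differed between the ductal arrays beside the members. Of 11 duct markers above the floor, 5 were at least 2-fold higher in deleted cells and 0 lower, with a median of 0.96. The ETS factor Ehf (5.93 and 8.92) and the epithelial cadherin Cdh1 (6.54 and 9.17) had differences of 2.99 and 2.63, within the range of the members, and the adhesion protein gene Epcam (5.42 and 7.22) and the duct factor Onecut1 (5.59 and 7.15) were 3.49-fold and 2.94-fold higher. Aqp1, a water channel, was lower in deleted cells by a difference of -0.51, and Slc4a4, which carries bicarbonate, read 8.04 in both.

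Acinar markers were higher as well, with 8 of 10 genes above the floor at least 2-fold higher, 0 lower and a median of 1.77, led by the trypsin inhibitor Spink1 (6.85-fold) and the phospholipase Pla2g1b (5.12-fold). Their summed level (log2 of the summed intensities of 12 genes) was 13.36 in wild-type ductal cells, 14.70 in deleted ductal cells and 15.09 in beta cells. Of the transcription factor genes on that list, Rbpjl and Ptf1a were below the floor on all 3 arrays. Bhlha15 read 5.38 on all 3, from 0.07 to 0.14 above the floor. Mesenchymal markers were lower, with 4 of 10 at least 2-fold lower, 0 higher and a median of -0.69; their summed level was 13.51 in wild-type, 12.89 in deleted ductal and 11.06 in beta cells. Mesothelial markers had a median of -0.06 over 8 genes, from Lrrn4 at -0.37 to Upk1b at 0.18. The part of these other cells in the members' differences was not tested.

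Several members are also known from liver, fat or blood cells. Of 9 measured hepatocyte markers, 2 were above the floor in the ductal comparison: Alb, the albumin gene, read 5.34 and 6.17 in wild-type and deleted cells and Apoa1 5.44 in both, while Apoh, Fgb, Ahsg, Cps1 and Cyp2e1 were below the floor on all 3 arrays. Of 8 adipocyte markers, 2 were above it, Fabp4 being 2.15-fold lower in deleted cells and Lipe identical, and Adipoq and Lep were below the floor. Of 11 macrophage markers, 3 were above it, Cd68 at -0.21, Cd14 at -0.16 and Csf1r identical. Cd14 was far above the floor, at 9.76 in wild-type and 9.60 in deleted cells, against 5.79 in beta cells. Adgre1, C1qa and Lyz2 were below the floor in both ductal arrays. The endothelial list had 2 identical genes above the floor, and neither the B and plasma cell list nor the 4 osteopontin relatives had any. Of 9 beta cell markers, 3 were above it, with Slc2a2 2.40-fold higher in deleted cells.

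Beta cells against wild-type ductal cells did not separate the members as a group. Of the 8 members above the floor there, 0 passed 2-fold as higher and 2 as lower in beta cells; of 11139 genes, 6.37% and 25.8% did (32.2% in either direction). After quantile normalization, Gprc5c (1.25) and Ambp (1.33) also passed 2-fold as higher in beta cells, and the count apart was 4. The 2 lower members were Tm4sf4 (2.43-fold) and Tspan8 (at least 5.6-fold). Ces1d was lower by a smaller amount, at -0.79 (-0.71 against the floor). Gprc5c, Ambp, Slc28a3 and Muc1 read slightly higher in beta cells, by 0.90, 0.63, 0.40 and 0.19, and Pigr by 0.94 as measured, 0.14 against the floor and -0.02 with a loess trend removed, which turns its direction. The median was 0.29, against -0.11 over all genes. As deposited, 5 of these 8 members read lower in wild-type ductal cells than in beta cells, by less than 2-fold each, as did 27.3% of all genes by any amount. The wild-type array was also used in choosing the members, so nothing is read from that count.

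For all 9 members, beta cells read at least 2-fold below deleted ductal cells as deposited. With a loess trend removed, 7 did, Gprc5c (-0.93) and Muc1 (-0.92) being the members lost, and Gprc5c was at -0.69 on its other probe set. Over all 11095 genes, 23.0% were lower by that fold, 5.13% higher and 28.1% either. The members' median was -2.61, against -0.05 over all genes. Tm4sf4 was 22.0-fold lower (-4.46, or -3.42 with the trend removed), Ces1d at least 11.1-fold and Gprc5c, the smallest of the differences as measured, 3.5-fold lower. Tspan8 was at -3.68, or -3.32 against the floor. The deleted array was used in choosing the members, and both comparisons with it share that array, so this count adds no separate evidence. Deleted cells were at least 2-fold above both other arrays for 8 of the 9 members and for 0.734% of 11304 genes above the floor on any array.

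The shape over the 3 arrays differed among members. With each level taken from the gene's own mean, the median profile was -0.81 in wild-type ductal cells, 1.75 in deleted ductal cells and -0.62 in beta cells. Muc1 lay nearest to it, at a Euclidean distance of log2 0.32, followed by Ambp (0.39) and Slc28a3 (0.40). Tspan8 (2.16) and Tm4sf4 (1.52) lay farthest, followed by Ces1d (0.91), and these members had their lowest level in beta cells. The acinar profile had another order, -1.26, 0.28 and 0.86, highest in beta cells. The mesothelial profile was 1.68, 1.78 and -3.46, nearly the same in both ductal arrays and low in beta cells.

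**Figure D4:**
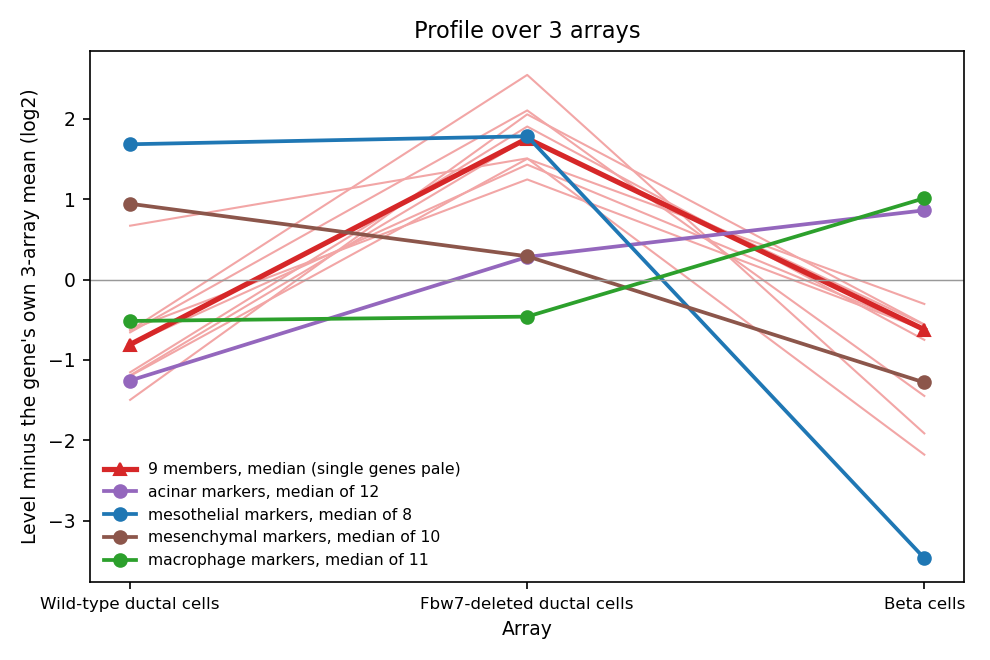
Levels minus each gene's own mean over the 3 arrays (log2) for the members (pale red, median in bold red) and the median of 4 marker lists. The members' median is highest in deleted ductal cells (1.75), the acinar and macrophage medians in beta cells (0.86 and 1.01), and the mesothelial median is low in beta cells (-3.46).

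The profiles of 10857 genes outside the list were compared with the members' median, over 3 arrays, 1 per group. Predicted genes, RIKEN clones and genes below the floor on all arrays were left out. The 5 nearest were Cdh1 (distance 0.23), Snorc (0.28), Ccnd1 (0.28), Reg3a (0.36) and Dcdc2a (0.42). Cdh1 is the epithelial cadherin, Ccnd1 the cyclin D1 gene of cell cycle entry and Reg3a an antimicrobial lectin. Ccnd1 read 8.08 in wild-type ductal cells, 10.44 in deleted ductal cells and 7.98 in beta cells, above the floor on all 3 arrays. Snorc, a proteoglycan gene, read 5.23, 7.94 and 5.71 in that order and Dcdc2a, a doublecortin-domain gene of cilia, 5.85, 8.28 and 6.42. Reg3a was above the floor in deleted ductal cells only (4.23, 6.45 and 4.48).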

How the data were processed

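The authors deposited log2 intensities of 35556 probe sets on 3 arrays, made with RMA per the submitters' processing notes. The RMA version and the set of arrays normalized with these are not given. The SD over probe sets was 1.57 for the beta cell array, 2.02 for wild-type and 1.97 for deleted cells, so the arrays do not share 1 distribution, and 47.2% of probe sets held the same value in both ductal arrays.

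Per the labels' protocols, RNA (18 ng) from 30000 sorted cells was amplified, converted and labelled with biotin. Symbols came from the platform annotation, with 21789 single-gene probe sets, 1621 with several genes and 12146 with none; 21698 matched a RefSeq gene (assembly GRCm38.p6) by gene ID. The probe set with the highest mean represented a gene. A comparison used genes whose higher level lay above that array's floor. Counts use levels as measured; where 1 level lay below the floor, the fold is a lower bound against the floor, written with "at least". Members, lists and motifs were chosen with earlier results of these data known. Named genes are the members, up to 4 genes of each list at least 2-fold apart or else its highest and lowest, and the 5 nearest profiles; other list genes were named for their role, after their values were seen. With 1 array per group no test was run, and the number of arrays limits the precision. The comparison of 2 arrays was tried on simulated levels, which lacked the values equal in both ductal arrays. The other steps were not tried on simulated data. The alternatives tried were thresholds of 1.5-fold and 4-fold, levels raised to the floor, averaging of probe sets, quantile normalization, centring, removal of a loess trend (span 0.3), and either no floor or the 75th percentile as floor. Software was matplotlib 3.10.9, statsmodels 0.14.6, pandas 2.3.3 and numpy 2.4.6 under Python 3.11.15.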

Additional observations from a re-analysis of the deposited data

How the results depend on the processing

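Between the ductal arrays, each of the 9 members kept its direction under every alternative run, and the count of 8 members at least 2-fold higher held except that 9 passed 1.5-fold and 7 passed 4-fold. Pigr fell from 3.55 to 2.76 with levels raised to the floor, and Gprc5c from 2.70 to 1.96 with the mean of its probe sets. Beta cell comparisons moved with the scaling. Against wild-type ductal cells the count of members 2-fold apart was 2 as deposited and 4 after quantile normalization or with the loess trend removed, where Gprc5c (1.25 and 1.05) and Ambp (1.33 and 1.20) were added as higher in beta cells; it was 6 at 1.5-fold and 1 at 4-fold. Against deleted ductal cells the median moved from -2.61 to -1.92 with the loess trend removed, and 7 members passed 2-fold as lower, without Gprc5c (-0.93) and Muc1 (-0.92). Quantile normalization moved the median of all genes from -0.11 to 0.09 in beta against wild-type ductal cells, and the share of higher genes among those 2-fold apart from 19.8% to 37.3% there, from 18.2% to 35.8% in beta against deleted and from 44.2% to 60.3% in deleted against wild-type ductal cells. No paired analysis was possible because each group is 1 array. Levels near or below the floor limit what can be said of Pigr, Prom1, Slc28a3 and Gprc5c in wild-type ductal cells.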
